A study of Mus musculus with 2 samples.

Results

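The genes described here were 49 mouse genes of the amino acid branch of the integrated stress response, taken as those that the transcription factors ATF4 and CHOP are known to switch on or that belong to the same programme. They were listed by known function after earlier results of these arrays had been seen, with Trib3 and Ddit3 then among the lowest ratios of the comparison. Their ratios between the arrays are therefore a description and not a test. A gene was kept as measured where a probe lay well above background on at least 1 array. Of the 49 genes, 48 were paired with a probe, and all 48 were well above background on both arrays, among 15258 named genes that met this on both arrays and 16282 that met it on at least 1. The remaining gene, Pycr1, had no probe that could be paired with it and was not analysed here.

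Cells that lack an amino acid, or that fold proteins poorly, phosphorylate the translation initiation factor eIF2 through kinases such as GCN2 and PERK. Most protein synthesis then slows, while the Atf4 transcript is translated better, and ATF4 switches on amino acid transporters, enzymes that make amino acids and the synthetases that charge tRNAs. With lasting stress ATF4 also induces CHOP, the product of Ddit3, and together they induce Trib3 and other genes of recovery or cell death.

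Ovaries of 2-week-old mice were cut lengthwise in equal pieces, and these were kept in culture for 3 days with ligands of the tachykinin receptors (TKR), the G protein-coupled receptors TACR1, TACR2 and TACR3 that bind substance P and the neurokinins. One array carried total RNA of ovary pieces cultured with TKR agonists, namely [Sar9, Met(O2)11]-SP for TACR1, GR-64349 for TACR2 and a succinylated fragment analogue of substance P for TACR3. The other carried RNA of pieces cultured with TKR antagonists, namely a nonpeptide antagonist of TACR1, GR-94800 for TACR2 and SB218795 for TACR3, and every ligand was used at 1 μM. The strain, the number of ovaries behind each array, and whether the ligands were given together or their RNA was mixed are not given in the sources used here. No untreated ovary was among the arrays, so a lower value with agonists and a higher value with antagonists cannot be told apart.

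Each condition had 1 array, so no test or replicate error could be computed, and every ratio below compares these 2 arrays only. Of 59305 spots, 65.4% lay well above background with agonists and 61.6% with antagonists, and no spot was saturated. Signals are the scanner software's processed signals in arbitrary units, and ratios are the log2 signal with agonists minus that with antagonists after each array was set to its own 75th percentile, which was 672 units with agonists and 569 with antagonists. A negative ratio thus means less signal with agonists relative to that percentile. Equal signals on both arrays give a ratio of -0.24, so a gene with a ratio between -0.24 and 0 had the higher printed signal with agonists. The median ratio of all 15258 genes was -0.10, the middle 50% lay between -0.27 and 0.15, and 62.3% were below 0. Across 284 probes printed 5 times or more, the SD of the ratio between spots had a median of 0.073, whereas each member's probe had 1 spot. The software's own error of a member's ratio had a median of 0.20 and reached 0.33 for the dimmest, Fgf21. Both kinds of error cover the measurement on the array and not the spread between ovaries.

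Amino acid stress genes as a group were lower with TKR agonists. Their median ratio was -0.38, which was -0.29 relative to the median of all genes, and 41 of 48 ratios were below 0, against 62.3% of all genes. On the spike-in scale 34 of 48 were below 0, against 24.1% of all genes. Members at least 1.5-fold lower with agonists numbered 16 of 48, or 33.3%, against 4.28% of all genes. Trib3, Ddit3 and Mthfd2 were at least 2-fold lower, which made 6.25% of the members against 0.577% of all genes. At least 1.5-fold higher were 5 members, or 10.4% against 9.26% of all genes, and Stc2 alone was at least 2-fold higher, or 2.08% against 4.01%. Since the list was drawn up with measured ratios in view, nothing is read from these shares beyond the description. In either direction, the ratios of 25 members were beyond 2 times the software's error. The share of all genes past that limit was not computed, so nothing is read from this count.

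The split depended on the scaling. With the arrays scaled on their spike-in controls the median of all genes moved from -0.10 to 0.18, and 6 members were at least 1.5-fold lower, against 1.13% of all genes, and 5 at least 1.5-fold higher, against 16.6%. With no scaling the median of all genes was 0.15, and these counts were 8, against 1.29%, and 5, against 15.5%. The median of the members stayed between -0.29 and -0.23 relative to all genes under every setting tried. Scaling each array by a constant cannot move this difference, and rules on spots cannot move members with 1 spot each. Where it could move, it was -0.26 with quantile normalization, -0.27 with loess and -0.26 with another background correction. Among bright probes alone (75th percentile or more) it was -0.23.

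**Figure D1:**
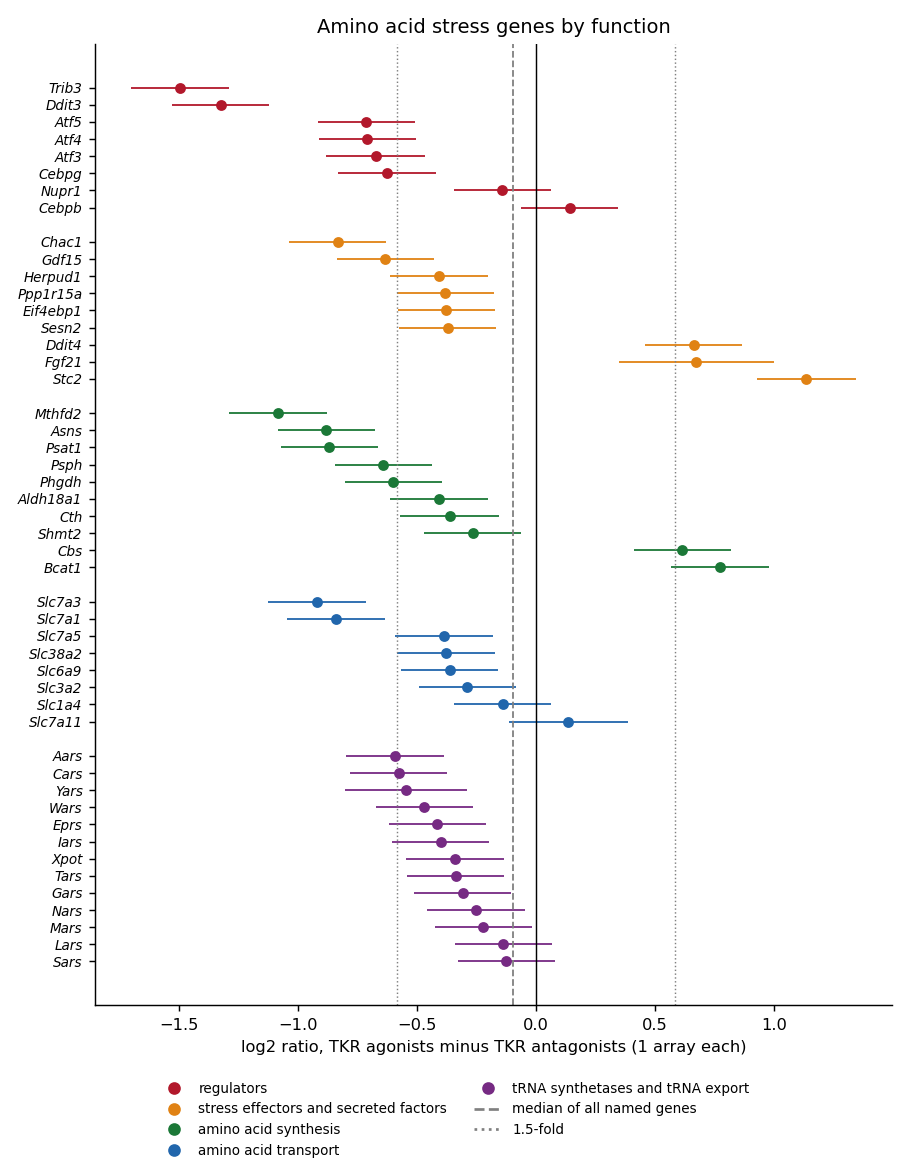
Log2 ratio of each of the 48 measured members, TKR agonists minus TKR antagonists with 1 array each, grouped by function and sorted within each group. Points are the ratios, bars the software's error of the ratio, the dashed line the median of all named genes and the dotted lines 1.5-fold. Trib3 at -1.49 and Stc2 at 1.13 are the ends of the range. All 13 genes of tRNA charging and export lie below 0 under this scaling, where 62.3% of all genes do. On the spike-in scale 9 of the 13 did, against 24.1% of all genes.

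The regulators stood lowest of the 5 function groups. Their 8 ratios had a median of -0.69. Of these 7 were below 0, against 62.3% of all genes, and 6 at least 1.5-fold lower with agonists, against 4.28%. Trib3, a pseudokinase that ATF4 and CHOP induce and that restrains both, gave 1916 units with agonists and 4565 with antagonists. Its ratio of -1.49, or 2.82-fold lower, was the 20th lowest of the 15258 genes. Ddit3 encodes CHOP itself, a C/EBP-family factor of prolonged stress. It measured 629 units with agonists and 1332 with antagonists, a ratio of -1.32 or 2.50-fold lower, and ranked 34th from the lowest.

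Atf4, the factor at the head of the programme, was among the brightest members, with 41652 units with agonists and 57536 with antagonists and a ratio of -0.71. A second Atf4 probe was dimmer, at 593 and 702 units, and gave -0.49. Since ATF4 is set largely through translation, its transcript is only part of its level. Atf5, a close relative whose translation is controlled in a like manner, gave 34001 and 47124 units and the same ratio of -0.71. Atf3, a stress-induced repressor and activator, was far dimmer at 244 and 329 units, with a ratio of -0.67. Cebpg, whose product pairs with ATF4 on DNA, measured 504 and 658 units and -0.62. These 4 genes thus lay within 0.09 of each other on the log2 ratio scale, less than the software's error of any of them. The other regulators differed from them. Nupr1, a small chromatin protein induced by stress, had 6072 units with agonists and 5669 with antagonists, and its ratio of -0.14 was close to the median of all genes. Cebpb, a broader C/EBP factor with many inputs in the ovary, had 6579 and 5043 units and the one positive ratio of the group, 0.14.

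ATF4 binds paired with C/EBP factors to the C/EBP-ATF response element, whose core is often written TGATGCAA, and the promoters were searched for it. RefSeq promoter windows (GRCm38.p6), each from 250 bases before to 50 bases after a transcription start, were given for 41 of the 49 members. The 8 letters TGATGCAA, on either strand, stood in the windows of 12 members, or 29.3% of 41, and in those of 1.03% of all 27025 genes with a window (0.895% of 32851 windows). With any base at the sixth place, TGATGNAA, which takes in the former, 15 members, or 36.6%, had a match, against 4.51% of all genes with a window. Many members are known targets through this element, so the share describes the choice of the list. A match is no proof of binding. The stretches below, lower case with the matched letters in capitals, read along the gene's strand, so that a match on the other strand appears as its reverse complement. They are shown to set members that were lower with agonists beside members that carried such letters and were not. Trib3 and Asns match TGATGNAA alone, with another base at the sixth place, and the other stretches match TGATGCAA.

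The first set is from members with ratios of -0.40 or below. Yars, with a ratio of -0.55, also had a match and is not printed. Where the match lies downstream of the start, 30 bases are given.

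Trib3, chr2:152344028-152344057, minus strand: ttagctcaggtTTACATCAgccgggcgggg

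Asns, chr6:7693210-7693257, minus strand: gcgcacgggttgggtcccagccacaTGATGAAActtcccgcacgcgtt

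Chac1, chr2:119351024-119351081, plus strand: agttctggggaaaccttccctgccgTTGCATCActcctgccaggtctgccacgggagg

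Atf3, chr1:191183411-191183468, minus strand: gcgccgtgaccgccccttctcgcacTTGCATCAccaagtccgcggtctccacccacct

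Aars, chr8:111033705-111033762, plus strand: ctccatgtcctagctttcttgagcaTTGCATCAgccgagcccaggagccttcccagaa

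Herpud1, chr8:94386292-94386349, plus strand: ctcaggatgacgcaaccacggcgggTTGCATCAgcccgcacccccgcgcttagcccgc

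Iars, chr13:49682126-49682155, plus strand: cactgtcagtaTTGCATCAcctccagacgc

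The second set is from members whose ratios were near the median of all genes or above 0. Slc1a4, with a ratio of -0.14, also had a match and is not printed.

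Nupr1, chr7:126625548-126625605, minus strand: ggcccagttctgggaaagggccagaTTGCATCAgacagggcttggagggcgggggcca

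Slc7a11, chr3:50443647-50443704, minus strand: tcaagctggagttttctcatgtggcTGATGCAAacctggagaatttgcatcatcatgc

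Fgf21, chr7:45615597-45615654, minus strand: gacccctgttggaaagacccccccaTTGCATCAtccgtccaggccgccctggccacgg

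The match lay 110 bases before the start in both Atf3 and Nupr1 by its first base, and 112 before it in both Aars and Herpud1. In Trib3 it began at base 15 after the start. Slc7a11 had a second match 47 bases before its start, on the other strand, whose letters also stand near the end of the stretch printed. Members with TGATGCAA, which leaves out Trib3 and Asns, had a median ratio of -0.40 (11 measured, 9 below 0) and members with a window but without those letters -0.38 (29 measured, 24 below 0). Both medians were thus close, and Ddit3, with -1.32, Mthfd2 and Psat1 were among those without a match. Of the related lists described below, 1 of 14 other amino acid transporters, 1 of 17 other amino acid and one-carbon enzymes and 1 of 8 other ATF4 or CHOP targets with a window held TGATGCAA, and none of 18 ER chaperones did.

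Amino acid synthesis genes had a median ratio of -0.50 over 10 measured genes. Of these 8 were below 0, against 62.3% of all genes, and 5 at least 1.5-fold lower with agonists, against 4.28%. Of the 5 members of the serine and one-carbon route, 4 were at least 1.5-fold lower. Phgdh, which draws 3-phosphoglycerate into serine synthesis, measured 4712 units with agonists and 6039 with antagonists, a ratio of -0.60. Psat1, the aminotransferase of the next step, had 2573 and 3970 units and -0.87. Psph, the phosphatase that releases serine, had 1976 and 2606 units and -0.64. Each of these 3 genes had a second probe, and those gave -0.56, -0.67 and -0.55. In the mitochondrion SHMT2 splits serine to glycine and MTHFD2 oxidises the one-carbon unit so released. Mthfd2 measured 846 and 1515 units and -1.08, or 2.12-fold lower, whereas Shmt2 had 1966 and 2000 units and -0.27, which became 0.01 on the spike-in scale. Other one-carbon genes outside the member list, looked up after their values were known, were not as low as those 4, with Shmt1 at 0.06, Gcsh at -0.08, Mthfd1l at -0.12, Gldc at -0.16, Mthfd2l at -0.22 and Mthfd1 at -0.27.

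Asns, asparagine synthetase and the textbook amino acid response gene, had 9702 units with agonists and 15105 with antagonists, a ratio of -0.88. Aldh18a1, which starts proline synthesis from glutamate, was at 274 and 307 units and -0.41. The last steps of the route from methionine to cysteine parted. Cth, cystathionine gamma-lyase, had 224 and 244 units and -0.36. Cbs, which makes the cystathionine that this enzyme cleaves, was higher with agonists at 4634 units against 2562, a ratio of 0.61. Bcat1, the cytosolic branched-chain aminotransferase, was higher too, at 1571 against 778 units and 0.77. The 3 Bcat1 probes ranged from 0.62 to 1.15, so all were above 0 and they differed by 0.52 among themselves.

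Amino acid transporters had a median of -0.37 over 8 genes. Of these 7 were below 0, against 62.3% of all genes. The cationic carriers Slc7a3 and Slc7a1 of the y+ system were the lowest. Slc7a2, a carrier of the same system outside the member list, was close to the limit of detection at 22.5 and 23.1 units. Its ratio of -0.28 was near the -0.24 that equal signals give. Slc7a3 had 444 units with agonists and 709 with antagonists, and its ratio was -0.92. Slc7a1, which carries arginine and lysine into most cells, had 3359 and 5085 units and -0.84. The other 6 lay above -0.40. Slc7a5 and Slc3a2 encode the light and heavy chains of the leucine exchanger LAT1. Slc7a5 had 824 and 911 units and -0.39, but its other probe, at 203 and 169 units, gave 0.02, so its direction rested on the probe. Slc3a2 had 9775 and 10097 units and -0.29. Slc38a2, the system A carrier that cells induce when amino acids run short, had 5964 and 6556 units and -0.38.

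Slc6a9, a glycine transporter, measured 8697 and 9457 units and -0.36. Slc1a4, an exchanger of neutral amino acids such as alanine and serine, had 10695 units with agonists and 9968 with antagonists and -0.14, near the median of all genes. Slc7a11, the cystine carrier that also answers to oxidative stress, was dim at 69.7 and 53.7 units and the one carrier above 0, at 0.14. It was at -0.06 with another background correction (normexp), so its sign was not settled. Of these 8 genes Slc7a11 and Slc1a4 had the letters TGATGCAA in their promoter windows, and neither had a ratio below -0.14.

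Genes of tRNA charging and export had ratios below 0 in 13 of 13 cases, against 62.3% of all genes, and their ratios were small. The direction of some turned with the scaling. Sars, Mars and Lars were above 0 with no scaling, which left 10 of 13 below 0, against 28.3% of all genes. On the spike-in scale Nars was above 0 too, which left 9 of 13 below 0, against 24.1% of all genes. The median was -0.34, or -0.37 for the 12 synthetases without Xpot. Aars, which charges alanine, was the lowest at 3653 and 4657 units and -0.59, or 1.51-fold lower. Cars, for cysteine, came next at 4620 and 5825 units and -0.58, or 1.49-fold, so the limit of 1.5-fold fell between these neighbours. Yars, for tyrosine, was dim at 54.6 and 67.4 units and gave -0.55. Wars, for tryptophan, had 6872 and 8045 units and -0.47, and its second probe gave -0.28. Eprs, for glutamate and proline, had 1742 and 1965 units and -0.42. Iars, for isoleucine, had 3977 and 4441 units and -0.40. These 6 ratios spanned 0.19 on the log2 ratio scale, less than the software's error of one of them, so their order is not resolved.

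The remaining synthetases were nearer to the median of all genes. Tars had 4834 and 5166 units and -0.34, Gars 24176 and 25321 units and -0.31, and Nars 2145 and 2162 units and -0.25. Mars, which also charges the initiator tRNA, had 1268 and 1251 units and -0.22. Lars and Sars, for leucine and serine, had slightly more signal with agonists, at 4167 against 3879 and 10497 against 9685 units, and ratios of -0.14 and -0.13. Xpot, the exporter of mature tRNAs from the nucleus, had 2235 and 2394 units and -0.34. Its other probe was well above background with antagonists only, at 27.5 units, and was at least 1.79-fold lower with agonists. This was the probe just inside the limit of detection, and a second Aars probe, well above background on neither array at 13.1 and 12.0 units, was the one just outside it.

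Stress effectors and secreted factors were the most divided group, with 6 ratios below 0, 3 above and a median of -0.38. Of all genes 62.3% were below 0, so the split in sign was near that of all genes. Chac1, which degrades glutathione and is induced by ATF4, was the lowest, with 1612 units with agonists, 2428 with antagonists and -0.83. Gdf15, a secreted stress hormone, had 486 and 637 units and -0.63. A cluster of 4 followed within 0.04 of each other. It held Herpud1, of the degradation of ER proteins, at 4336 and 4865 units and -0.41. Ppp1r15a, the eIF2 phosphatase subunit that ends the response, had 4945 and 5449 units and -0.38. Eif4ebp1, a brake on cap-dependent translation, had 11073 and 12162 units and -0.38, and Sesn2, an inhibitor of mTORC1, had 1724 and 1886 units and -0.37.

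Stc2, Fgf21 and Ddit4 lay on the opposite side. Stc2, a secreted glycoprotein, had 367 units with agonists and 141 with antagonists, a ratio of 1.13 or 2.20-fold higher. Its rank of 480 from the highest was less extreme than the rank of Trib3 from the lowest. Fgf21, a hormone best known from liver, was dim at 49.3 and 26.2 units and gave 0.67, which moved to 0.04 with normexp. Ddit4, an inhibitor of mTORC1 that hypoxia and glucocorticoids also induce, was bright at 25167 against 13449 units and gave 0.66. The directions of Stc2 and Ddit4 were the same under all settings tried in which their probes were kept.

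**Figure D2:**
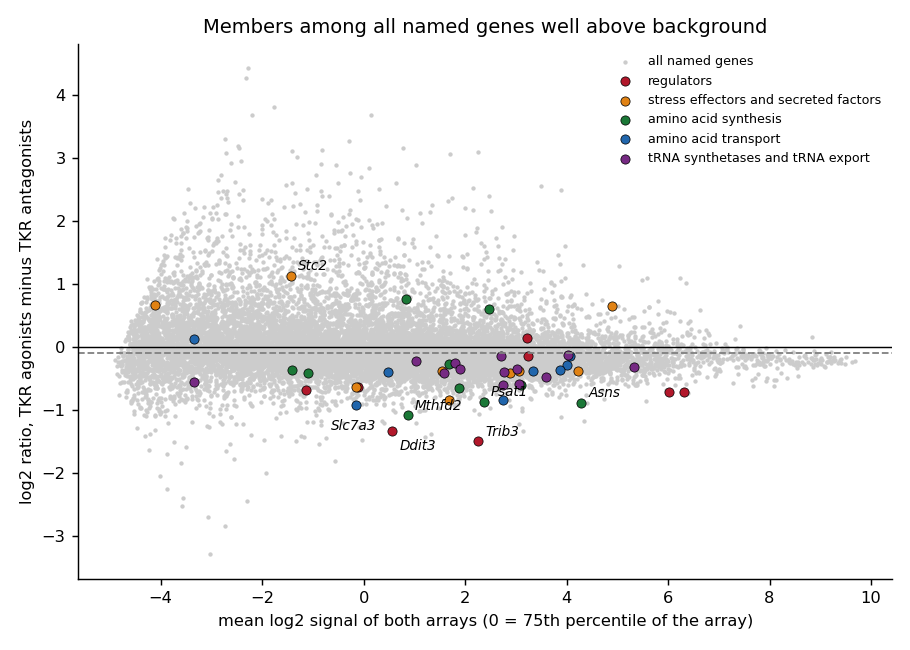
Log2 ratio, TKR agonists minus TKR antagonists, against the mean log2 signal of both arrays relative to each array's 75th percentile, for all 15258 named genes (grey) and the 48 members (coloured by function). Trib3 and Ddit3 lie at the lower edge of the cloud at -1.49 and -1.32, Asns is low at -0.88 among bright genes, and the spread of all genes narrows as signal increases.

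Lists of genes next to the programme gave a narrower picture, and they too were drawn up with earlier results known. The eIF2 kinases with eIF2 and eIF2B subunits, which act upstream of ATF4, had a median of -0.19. All 14 were below 0 and 12 below the median of all genes. Eif2ak2 at -0.68 and Eif2ak1 at -0.50 were the lowest, and Eif2b2 at -0.07 and Impact at -0.06 the highest. Cytosolic synthetases outside the member list had a median of -0.22, with 8 of 8 below 0 and 7 below the median of all genes, from Farsb at -0.59 and Hars at -0.49 to Dars at -0.15 and Rars at -0.02. Mitochondrial synthetases with a gene of their own had a median of -0.19. All 16 were below 0, where 62.3% of all genes lay, but 10 were below the median of all genes and 6 above it. Among them Mars2 at -0.97 and Cars2 at -0.42 were the lowest, and Vars2 at -0.03 and Sars2 at -0.02 the highest. Mars2 was dim, at 22.5 units with agonists and 37.4 with antagonists, close to the limit of detection. The medians of these 3 lists were nearer to that of all genes, -0.10, than to that of the member synthetases, -0.37.

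Transport and synthesis genes outside the member list had medians closer to that of all genes, of which 62.3% were below 0. Other amino acid transporters had a median of -0.01, with 9 of 18 below 0, from Slc38a3 at -1.01 and Slc1a3 at -0.59 to Slc43a1 at 0.70 and Slc7a7 at 1.47. Other amino acid and one-carbon enzymes had a median of -0.11, with 15 of 22 below 0, from Mat2a at -0.46 and Got1 at -0.45 to Glul at 0.41 and Ass1 at 0.68. Other described targets of ATF4 or CHOP had a median of -0.07, with 7 of 12 below 0. Of these Ero1l, the ER oxidase that CHOP induces, was by far the lowest at -1.41 and Atg12 was next at -0.42, whereas the BH3-only genes Bbc3 and Pmaip1 were the highest at 0.36 and 0.56.

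ER chaperones and targets of XBP1 or ATF6, the other arms of the unfolded protein response, had a median of -0.16. Of these 17 of 21 were below 0, against 62.3% of all genes, and 12 below the median of all genes. None was at least 1.5-fold lower, against 4.28% of all genes. They ran from Hspa5 at -0.39 and Sel1l at -0.35 to Dnajb9 at 0.11 and Xbp1 at 0.25. Cholesterol synthesis genes, a programme outside this pathway, were lower than the members, with a median of -0.52, 16 of 16 below 0 and 15 below the median of all genes, from Sqle at -0.96 and Lss at -0.77 to Fdps at -0.37 and Pmvk at -0.06. Of the 16 cholesterol synthesis genes, 5, or 31.25%, were at least 1.5-fold lower with agonists. This compares with 33.3% of the members and 4.28% of all genes. A low median and a high share at least 1.5-fold lower were thus not particular to amino acid stress genes. Immediate early and heat shock genes, which respond to handling of tissue, had a median of -0.34 with 6 of 10 below 0. They ran from Hspa1a at -0.77 and Dnajb1 at -0.54 to Hmox1 at 0.40 and Junb at 0.81. Junb was dim, at 46.1 units with agonists and 22.3 with antagonists.

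**Figure D3:**
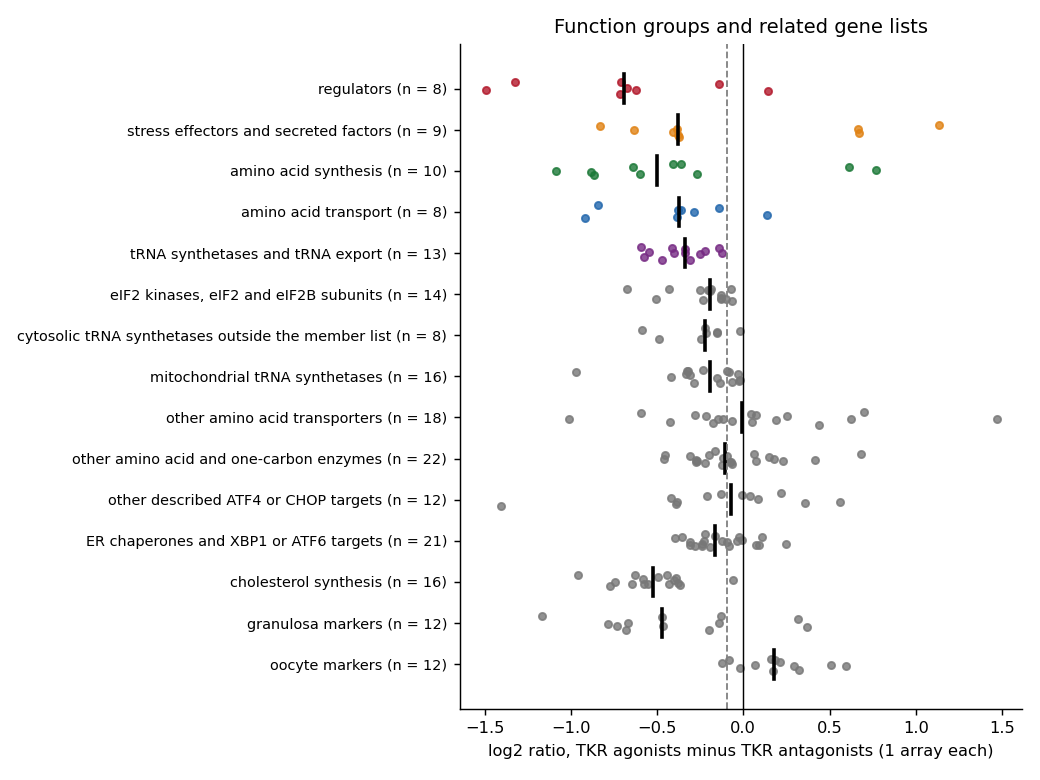
Log2 ratio, TKR agonists minus TKR antagonists, of each gene in the 5 function groups (coloured) and in the related gene lists (grey), 1 array each, with a vertical bar at each median and a dashed line at the median of all named genes. The regulators have the lowest median at -0.69, while other amino acid transporters sit at -0.01 and ER chaperones at -0.16.

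Markers of cell types differed between the arrays as well. Granulosa cells, the somatic cells around the oocyte, had 12 of 12 markers well above background on both arrays. Ratios were below 0 for 10 of these, though Inhba, Gata4 and Kitl among them had more printed signal with agonists. The median of the 12 was -0.47, and 5, or 41.7%, were at least 1.5-fold lower with agonists, against 4.28% of all genes. Inhbb at -1.17 and Fst at -0.78 were the lowest and Foxl2 at 0.32 and Cyp19a1 at 0.37 the highest. Their summed signal was 131 times the array's 75th percentile with agonists and 188 times with antagonists. Oocyte markers, also 12 of 12 well above background on both arrays, had a median of 0.18 with 3 below 0, from Zp3 at -0.13 to Figla at 0.59, and sums of 280 and 282. Ratios above 0 were found for 5750 of all 15258 genes. Macrophage markers were higher with agonists in 10 of 10 (median 0.93; sums 24.6 and 16.2), with Cd68 and Cd163 left without a probe well above background on both arrays. Endothelial markers were higher in 8 of 9 (0.88; 77.8 and 63.0), without Tek. Stromal markers were higher in 8 of 9 (0.41; 417 and 348). Surface epithelium markers were higher in 9 of 9 (1.03; 42.7 and 18.8), without Muc16. The tissue was bulk ovary, so fewer cells of a type and less RNA per cell cannot be told apart. The part of the cell mixture in the ratios of the amino acid stress genes was not tested.

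**Figure D4:**
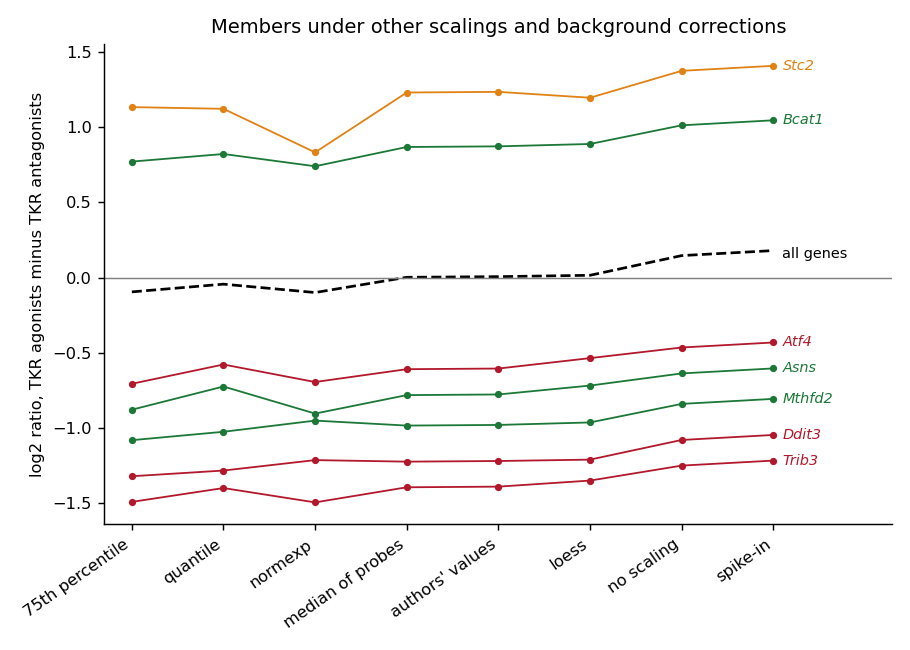
Log2 ratio, TKR agonists minus TKR antagonists with 1 array each, of 7 members and the median of all named genes (dashed) under 8 scalings or background corrections on the horizontal axis. Lines join the values of one gene across settings, which have no natural order. Trib3 and Ddit3 stay beyond 2-fold lower, from -1.50 to -1.22 and from -1.32 to -1.05, and Stc2 and Bcat1 stay above 0.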

How the data were processed

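Total RNA of each culture was labelled with Cy3 and hybridised to an Agilent 60K mouse array, and the authors deposited the intensity of every spot as written by Agilent Feature Extraction (10.10.1.1). Their table of processed values equals that intensity times 1 constant per array (1.99 and 2.19; column medians 128.5 and 115.3), so scale is known and no centring of genes was applied.

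Non-control spots were taken as log2 processed signal minus the array's 75th percentile. Outlier spots (165 and 159) were left out, and spots of a probe were averaged. Detection of a probe required the software's well-above-background flag on more than 50% of its spots. Of 55674 probes, 27230 were named through transcript accessions in the RefSeq table (GRCm38.p6), and a gene was represented by its brightest detected probe. Every member was named with its values. Of related lists, the 2 lowest and 2 highest were named, and for oocyte markers 1 of each. For macrophage, endothelial, stromal and surface epithelium markers, counts, medians and sums were given. Members and lists were chosen with earlier results of these data known.

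No test was run, since each condition had 1 array, and the number of arrays limits the precision. The steps were tested on simulated data. Python 3.11.15 (numpy 2.4.6, pandas 2.3.3, statsmodels 0.14.6, matplotlib 3.10.9) and R 4.3.3 with limma 3.58.1 (normexp, offset 50) were used. Other scalings, background corrections, probe rules and filters were tried.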

Additional observations from a re-analysis of the deposited data

How the results depend on the processing

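The median ratio of the members stayed below 0 throughout, but its size followed the scaling. It was -0.38 with the 75th percentile, -0.30 with quantile normalization, -0.29 with the median of probes set equal, -0.28 with the authors' values, -0.25 with loess, -0.14 unscaled and -0.11 on the spike-in scale. Members at least 1.5-fold lower numbered 16, where 4.28% of all genes were. They numbered 10 with the median of probes set equal (2.56% of all genes), 10 with the authors' values (2.52%), 9 with loess (2.67%), 8 unscaled (1.29%) and 6 on the spike-in scale (1.13%). Leaving aside the setting that kept bright probes alone (75th percentile or more), which dropped 10 members, Ddit3, Trib3, Asns, Psat1, Mthfd2 and Slc7a3 were at least 1.5-fold lower in all 12 settings, and Ddit3 and Trib3 at least 2-fold lower. In those 12 settings 34 members stayed below 0, 6 above 0, and 37 below the median of all genes. The share of all genes that met these rules in every setting was not computed, so nothing is read from these counts. Not all 12 were separate checks. Taking the median over spots, keeping outlier spots and dropping the filter on dim probes left every member's ratio unchanged. Scaling by a constant per array shifted all ratios by the same amount. The sign changed in some setting for 8 members, which were Lars, Mars, Nars, Nupr1, Sars, Shmt2, Slc1a4 and Slc7a11, all with ratios between -0.27 and 0.14. No paired analysis was possible because only 1 array stood for each treatment and nothing was tested. Dim probes carry the largest array error, with a median SD between spots of 0.13 below the 75th percentile and 0.060 above it.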
